A study of Mus musculus with 6 samples.

Results

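Cytochrome P450 genes of families 1 to 4 were examined in RNA from mouse small intestinal crypts, as the 72 genes whose platform symbol had the form Cyp, a family digit from 1 to 4, a subfamily letter and a number. They were 72 of 19505 genes measured, each read by 1 probe set, and all 72 symbols were the same in the RefSeq gene table. Of the 72, 3 belonged to family 1, 46 to family 2, 7 to family 3 and 16 to family 4, in 20 subfamilies. Crypts came from 3 CSN8fl/fl and 3 CSN8ΔIEC samples on a C57bl/6 background, with 1 Affymetrix array per sample. CSN8 is a subunit of the COP9 signalosome and is encoded by Cops8. CSN8fl/fl names mice with loxP sites around that gene and CSN8ΔIEC mice in which the intestinal epithelium has lost it, as far as the genotype names say. Which promoter drove the recombinase is not stated in the labels. In both genotypes the first 2 replicates carry the label female at 16 weeks and the third the label male at 10 weeks, and the effects of sex and age cannot be told apart. Villi were scraped away before the crypts were shaken free. The study's stated question concerned the antimicrobial peptides of the gut, and the P450 genes were read from the same arrays.

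P450 enzymes are haem proteins of the endoplasmic reticulum that insert an oxygen atom into their substrates, with electrons passed on by P450 oxidoreductase and cytochrome b5. Families 1 to 3 hold the enzymes known for oxidising drugs, plant compounds and other foreign chemicals, and the intestinal epithelium is where many of these are first met after a meal. Members of subfamilies Cyp2c and Cyp2j also oxidise arachidonic acid, and family 4 hydroxylates fatty acids and leukotrienes at or near the end of the chain. Several are induced through receptors for foreign or dietary compounds, such as AHR for Cyp1a1, CAR for Cyp2b10, PXR for Cyp3a11 and PPARα for Cyp4a10 and Cyp4a14.

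Across the 15 pairs of arrays, correlations over all probe sets lay between 0.976 and 0.993, and CSN8fl/fl replicate 3 stood apart from the other 5 with 0.976 to 0.986. Cops8 was lower in CSN8ΔIEC crypts by 0.50 on the log2 scale, from 8.19 ± 0.08 to 7.69 ± 0.08 (SD, n = 3 each, adjusted p = 0.0865), and whether its probes lie in the deleted part is not known here. Markers of crypt cells had clear signals, with means over the 6 arrays of 12.5 for Ang4 of Paneth cells, 8.37 for the stem cell gene Lgr5 and 11.6 for the proliferation gene Mki67. Of 11 Paneth cell markers 6 fell between genotypes, Ang4 among them, and 0 rose. Genes of villus enterocytes were also high, at 13.2 for Sis and 13.4 for Apoa4. Of 9 liver genes, 6 were above the background line defined next, near the 67.9% of all genes above it. These 6 ran from 5.74 for Alb to 7.26 for Serpina1a, and Fga, Ahsg and Hp were below that line. With the tissue in bulk, fewer cells of a type and less RNA per cell cannot be told apart. All signals and differences below are on the log2 scale.

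About as many of the P450 genes had a signal in these crypt samples as did not. Which cells of the samples gave these signals was not tested. A gene was called above background when its mean log2 signal over the 6 arrays was over 5.51, the 95th percentile of that mean over 1427 olfactory, vomeronasal and trace amine receptor genes, which crypts were taken not to use. By this line 37 of the 72 P450 genes, or 51.4%, were above background, against 67.9% of all genes. The gene nearest above the line was Cyp2c54 at 5.58 and the nearest below was Cyp4a10 at 5.34. Probe sets respond differently to the same amount of RNA, so each gene was compared with the line and not with another gene.

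**Figure D1:**
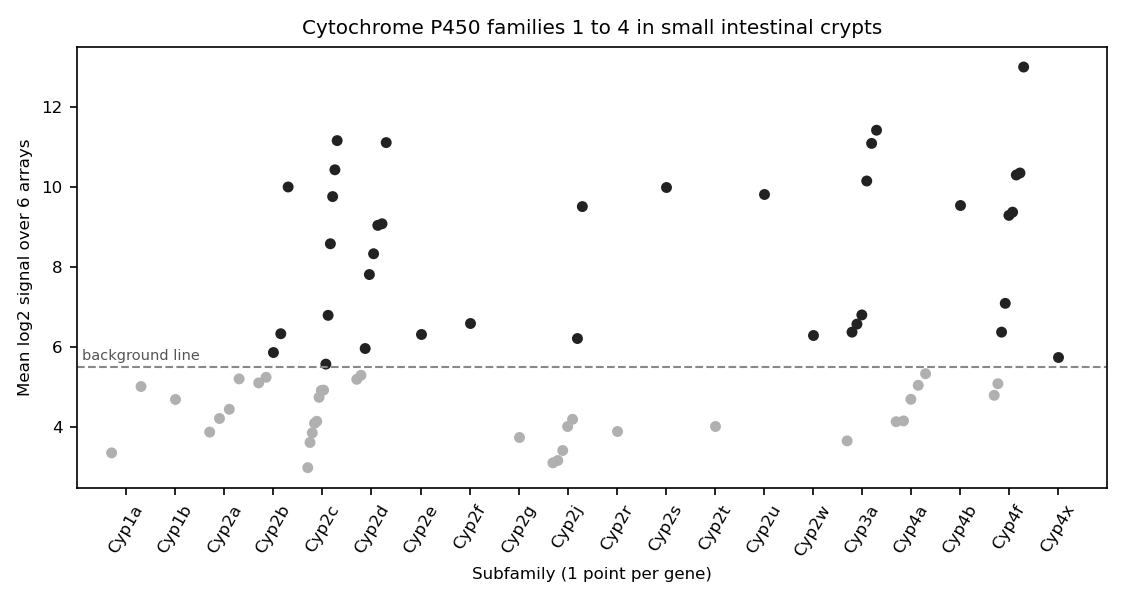
Each point is the mean log2 signal of 1 P450 gene over the 6 arrays, placed by subfamily, with genes above the background line (dashed, 5.51) in black and the others in grey. None of the Cyp1a, Cyp1b, Cyp2a and Cyp4a genes lay above the line, while 6 of 7 Cyp3a and 7 of 9 Cyp4f genes did.

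Subfamilies differed in how many of their genes had a signal. Above the line were 3 of 5 Cyp2b, 6 of 14 Cyp2c, 6 of 8 Cyp2d, 2 of 7 Cyp2j, 6 of 7 Cyp3a and 7 of 9 Cyp4f genes, together with Cyp2e1, Cyp2f2, Cyp2s1, Cyp2u1, Cyp2w1, Cyp4b1 and Cyp4x1, the only measured members of their subfamilies. Signals over 11 on average were found for Cyp2c65 (11.2), Cyp2d26 (11.1), Cyp3a11 (11.1), Cyp3a13 (11.4) and Cyp4f14 (13.0). Cyp3a11 is the main PXR-induced drug-oxidising P450 of the mouse, and Cyp4f14 hydroxylates leukotrienes. None of 3 family 1 genes passed the line, with Cyp1a1, the classical AHR target, at 5.02, Cyp1a2 at 3.36 and Cyp1b1 at 4.71. The 4 Cyp2a genes lay between 3.88 and 5.21 and the 5 Cyp4a genes between 4.14 and 5.34. Cyp2g1 (3.76), Cyp2r1 (3.91) and Cyp2t4 (4.03) were below the line too.

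Some chromosomal neighbours differed in whether they had a signal. Of the 71 members that the RefSeq table lists as protein-coding, 63 lay in 8 clusters in which consecutive members had at most 4 other coding genes between them. Cyp2d13, a transcribed pseudogene in that table, had a mean of 9.05. Whether its probes, or those of other members, also bind RNA of related genes was not tested. In the Cyp2j cluster of 7 on chromosome 4, Cyp2j6 (9.52) and Cyp2j9 (6.22) were above the line and the other 5 were at most 4.20. In the cluster of 13 Cyp2c genes on chromosome 19, the first in genome order, Cyp2c55, Cyp2c65 and Cyp2c66, had means of 9.77, 11.2 and 10.4. Further along, Cyp2c68 (8.59) lay between Cyp2c67 (4.15) and Cyp2c40 (3.86), and Cyp2c69 (3.62) followed. The Cyp2a, Cyp2b, Cyp2f, Cyp2g, Cyp2s and Cyp2t genes formed a cluster of 13 on chromosome 7, of which 5 were above the line.

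**Figure D2:**
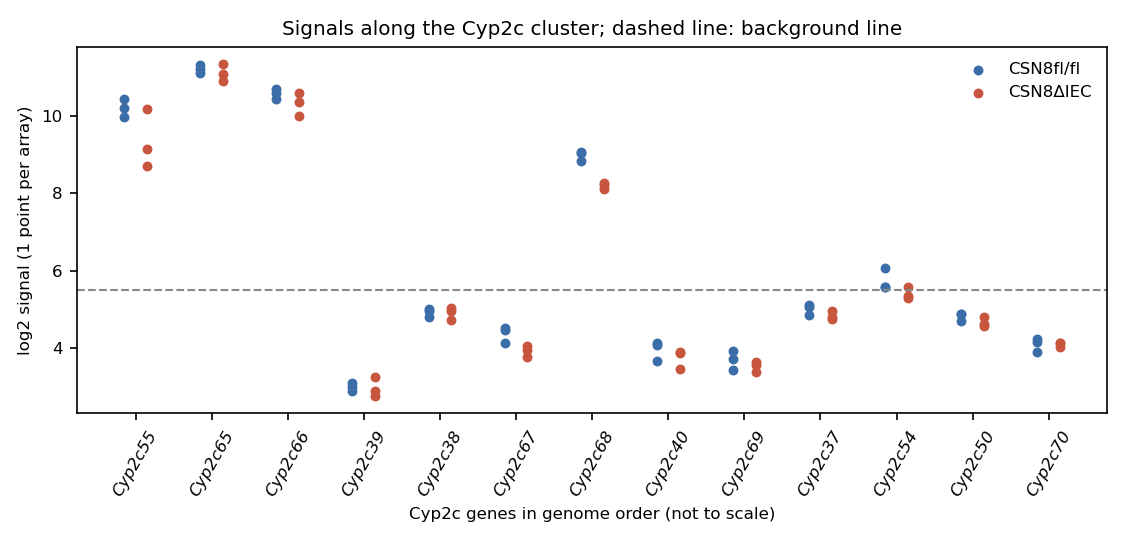
Log2 signal in each array (1 point per array, CSN8fl/fl in blue and CSN8ΔIEC in red) of the 13 Cyp2c genes of the chromosome 19 cluster in genome order, not to scale, with the background line dashed. Cyp2c55, Cyp2c65 and Cyp2c66 at one end and Cyp2c68 in the middle stand well above the line, Cyp2c54 (mean 5.58) lies at it, and the 3 CSN8ΔIEC points of Cyp2c68 lie below its 3 CSN8fl/fl points.

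The upstream sequences of this cluster are shown because Cyp2c68, the P450 gene that fell, has near copies beside it with signals below the line. They are the 150 bases before the annotated start from RefSeq on GRCm38.p6, 5′ to 3′ on the gene's own strand. Cyp2c67 (chr19:39649043-39649192), Cyp2c68 (chr19:39741102-39741251), Cyp2c40 (chr19:39812815-39812964) and Cyp2c69 (chr19:39886770-39886919) are on the minus strand, and Cyp2c65 (chr19:39060856-39061005) and Cyp2c66 (chr19:39113748-39113897) on the plus strand. Capitals mark the only match within these bases to GCGTG, the core bound by AHR with ARNT, read on the other strand.
Cyp2c67: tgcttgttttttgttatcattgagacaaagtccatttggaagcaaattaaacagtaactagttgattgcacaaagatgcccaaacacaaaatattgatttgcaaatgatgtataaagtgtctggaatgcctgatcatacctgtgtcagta
Cyp2c68: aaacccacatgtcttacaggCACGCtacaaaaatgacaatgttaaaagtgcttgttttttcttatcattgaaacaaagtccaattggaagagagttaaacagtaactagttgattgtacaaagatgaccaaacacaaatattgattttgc
Cyp2c40: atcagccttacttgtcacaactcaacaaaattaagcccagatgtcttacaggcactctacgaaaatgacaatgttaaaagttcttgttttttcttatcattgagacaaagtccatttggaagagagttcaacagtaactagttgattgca
Cyp2c69: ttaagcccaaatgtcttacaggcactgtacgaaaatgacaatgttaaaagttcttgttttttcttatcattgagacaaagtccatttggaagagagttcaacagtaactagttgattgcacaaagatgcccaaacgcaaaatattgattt
Cyp2c65: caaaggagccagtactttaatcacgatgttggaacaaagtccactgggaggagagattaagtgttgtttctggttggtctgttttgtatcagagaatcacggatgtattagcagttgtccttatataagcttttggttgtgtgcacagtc
Cyp2c66: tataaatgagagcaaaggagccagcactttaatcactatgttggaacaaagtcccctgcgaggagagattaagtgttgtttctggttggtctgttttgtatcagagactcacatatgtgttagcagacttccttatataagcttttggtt
The annotated starts are offset between the copies, so identity was taken over the overlap of the 250 bases before each start. It was 93.5% between Cyp2c68 and Cyp2c69 over 248 aligned positions, 95% between Cyp2c68 and Cyp2c40 over 218 and 91.7% between Cyp2c68 and Cyp2c67 over 204. Cyp2c65 and Cyp2c66, both above the line, shared 87.4% over 238. Across these 2 groups identity was lower, at 52.7% between Cyp2c68 and Cyp2c65. Probes for one of these copies may also bind RNA of another, so each value of the Cyp2c68 group is uncertain to that extent.

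Between genotypes, Cyp2c68 was the P450 gene that changed. Its log2 signal read 9.04, 8.83 and 9.08 in the CSN8fl/fl arrays against 8.27, 8.21 and 8.11 in the CSN8ΔIEC arrays, listed here and below from replicate 1 to 3. The 3 CSN8ΔIEC values all lay below the CSN8fl/fl values. It fell 1.73-fold, with a difference (CSN8ΔIEC minus CSN8fl/fl) of −0.79 ± 0.12 (SE, n = 3 each, 95% interval −1.06 to −0.51, adjusted p = 0.0229, limma). So 1 of 72 P450 genes fell, or 1.39%, where 1.08% of all genes were called in either direction and 0.702% were called lower, and the members' count is near this background. None of the 72 rose, where 0.374% of all genes did, and 2 of 72 were higher at an unadjusted p under 0.05 (2.78%, against 6.95% of all genes). With 1 library left out at a time, Cyp2c68 passed only without CSN8fl/fl replicate 2 (adjusted p = 0.0383), with differences from −0.86 to −0.74 and adjusted p-values up to 0.102. The adjusted p was 0.15 in labelled females alone (difference −0.70), and its range across every alternative run was 0.0118 to 0.15.

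**Figure D3:**
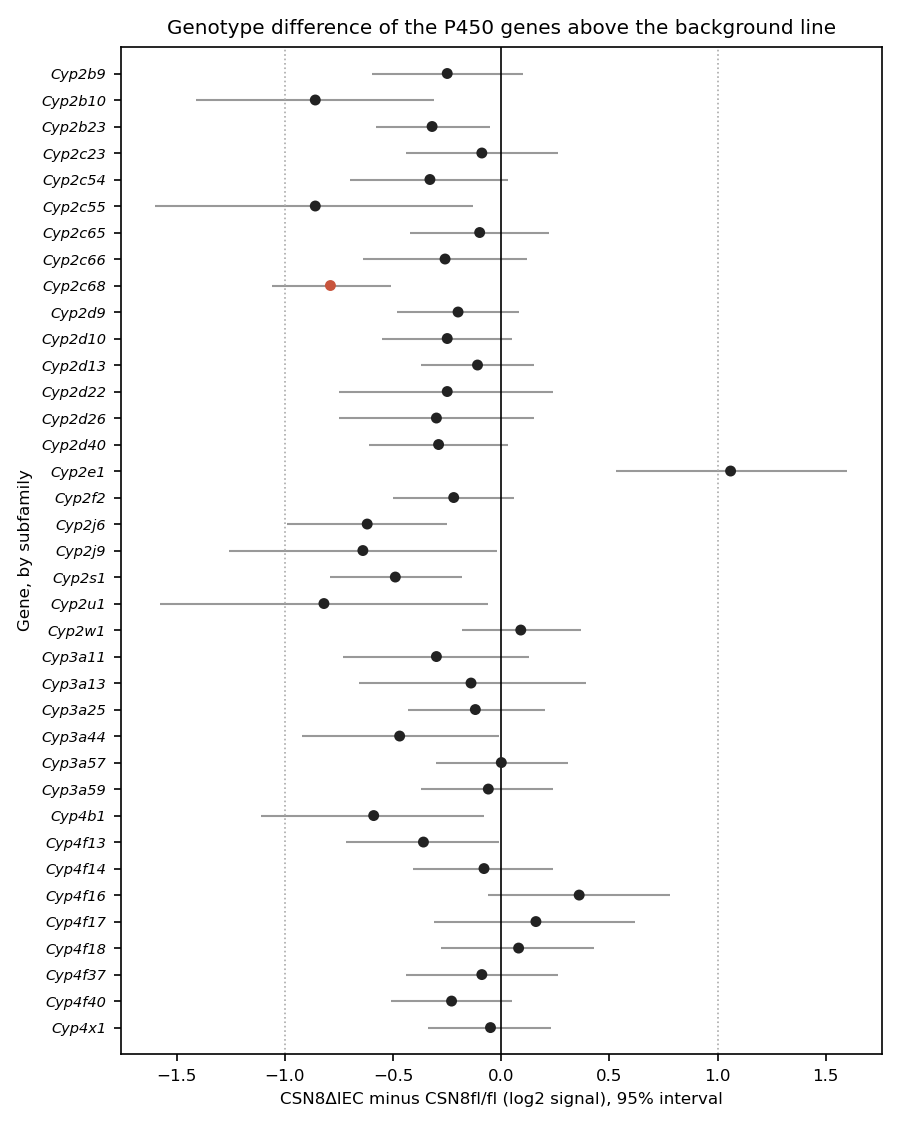
Difference between genotypes (CSN8ΔIEC minus CSN8fl/fl, log2) of the 37 P450 genes above the background line, with 95% intervals from limma. Cyp2c68, in red, passed the threshold, Cyp2e1 lies farthest to the right at 1.06, and the dotted lines mark a 2-fold difference either way.

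The 95% interval of the difference lay within 2-fold in both directions for 63 of the 72 genes, against 18469 of all 19505. Of the 37 above the background line it did for 30, against 12357 of 13236, so the members were bounded less often than genes in general. The 9 exceptions were Cyp2b10, Cyp2c55, Cyp2c68, Cyp2e1, Cyp2j9, Cyp2r1, Cyp2u1, Cyp4a32 and Cyp4b1. Differences were below 0 for 50 of 72, or 69.4%, against 51.8% of all genes, and the median was −0.13 against −0.01. At an unadjusted p under 0.05, 13 of 72 were lower, or 18.1%, against 8.01% of all genes. Of the 37 genes above the line 11 were, where 9.1% of all genes above the line were, and the same number had groups that did not overlap (29.7%, against 13.6%). All 3 CSN8ΔIEC values lay below all 3 CSN8fl/fl values for 13 genes (18.1%, against 11.7% of all genes) and above them for 5 (6.94%, against 10.7%). Many members are sequence copies of each other and were not independent measurements, and no test of the list was made. Without CSN8fl/fl replicate 3 the median was −0.06, and without any other 1 library it lay between −0.18 and −0.08.

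The drug-oxidising Cyp2b and Cyp3a genes did not pass the threshold. Cyp2b10, the CAR-induced member, had signals of 10.52, 10.47 and 10.33 in CSN8fl/fl and 9.34, 10.22 and 9.19 in CSN8ΔIEC. CSN8ΔIEC replicate 2 was close to the CSN8fl/fl samples and the other 2 were lower. The difference was −0.86 ± 0.24 (adjusted p = 0.152), and it passed without CSN8ΔIEC replicate 2 (−1.18, adjusted p = 0.0166, with 0.0166 to 0.438 across the alternatives). Cyp2b23 differed by −0.32 (adjusted p = 0.26) and Cyp2b9 by −0.25 (adjusted p = 0.484), and the median of the 5 Cyp2b genes was −0.25. Of the 7 Cyp3a genes 6 had differences below 0, with a median of −0.14, but in labelled females 3 of 7 did, with a median of 0.03. In the male pair 7 of 7 did, with a median of −0.58, and the median lay between −0.31 and −0.03 with 1 library left out. Cyp3a11 was at 11.46, 11.15 and 11.13 in CSN8fl/fl and at 11.00, 11.28 and 10.55 in CSN8ΔIEC, and the groups overlapped. Its difference was −0.30 with a 95% interval from −0.73 to 0.13 (adjusted p = 0.498). For Cyp3a25 the interval was −0.43 to 0.20 and for Cyp3a13, an intestinal member, −0.66 to 0.39. Cyp3a44 differed by −0.47 (adjusted p = 0.317) and Cyp3a57 by 0.00.

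All 14 Cyp2c differences were below 0, from −0.86 to −0.01 with a median of −0.17, and all 8 Cyp2d differences were too, from −0.30 to −0.05 with a median of −0.22. Cyp2c55, which makes hydroxylated arachidonic acid, had signals of 10.45, 10.20 and 9.96 in CSN8fl/fl and 10.17, 9.15 and 8.70 in CSN8ΔIEC. CSN8ΔIEC replicate 1 lay among the CSN8fl/fl values and the others below them, and the difference was −0.86 ± 0.33 (adjusted p = 0.265). It was −1.28 without that replicate, and over the 6 fits that each left out 1 library it reached −0.54. Cyp2c67, below the line, differed by −0.45 ± 0.14 (adjusted p = 0.188). Cyp2c65 and Cyp2c66 had intervals of −0.42 to 0.22 and −0.64 to 0.12, and their groups overlapped. Among the Cyp2d genes, Cyp2d40 (−0.29), Cyp2d26 (−0.30), Cyp2d22 (−0.25), Cyp2d10 (−0.25), Cyp2d9 (−0.20) and Cyp2d13 (−0.11) had adjusted p-values of 0.379 to 0.697. In labelled females alone the Cyp2d median was −0.07 and the Cyp2c median −0.06, with 10 of 14 Cyp2c genes below 0. Of the 14 Cyp2c genes, 8 were below the background line.

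Among the other family 2 genes, none passed the threshold. The genotype groups did not overlap for Cyp2r1, Cyp2j6, Cyp2s1 and Cyp2f2, which were lower in CSN8ΔIEC. Nor did they for Cyp2e1, Cyp2j12 and Cyp2t4, which were higher. Of all genes, 11.7% had such groups in the lower direction and 10.7% in the higher. Cyp2j12 (mean 3.11) and Cyp2t4 (4.03) were below the background line and differed by 0.21 and 0.33. The Cyp2j12 groups met at 3.18 after rounding. Cyp2e1, which oxidises ethanol and small solvents, was at 5.67, 6.01 and 5.74 in CSN8fl/fl and at 7.02, 6.30 and 7.30 in CSN8ΔIEC. The groups did not overlap and the CSN8fl/fl values lay just over the background line. The difference was 1.06 ± 0.24 (adjusted p = 0.0825), and it passed without CSN8ΔIEC replicate 2 (1.35, adjusted p = 0.0185, with 0.0185 to 0.342 across the alternatives). Cyp2r1, a vitamin D hydroxylase, was at 4.86, 4.53 and 3.98 in CSN8fl/fl and 3.07, 3.50 and 3.54 in CSN8ΔIEC, all below the line. Its difference of −1.08 ± 0.23 (adjusted p = 0.0663) passed once CSN8fl/fl replicate 3 was left out (−1.32, adjusted p = 0.029, with 0.029 to 0.247 across the alternatives). Cyp2j6 was at 9.69, 9.64 and 10.16 in CSN8fl/fl and 9.20, 9.35 and 9.08 in CSN8ΔIEC, with groups that did not overlap and a difference of −0.62 ± 0.16 (adjusted p = 0.125). Cyp2s1, a P450 of epithelia outside the liver, was at 10.17, 10.43 and 10.13 in CSN8fl/fl and 9.77, 9.60 and 9.89 in CSN8ΔIEC. These groups did not overlap either, and the difference was −0.49 ± 0.13 (adjusted p = 0.145). Cyp2f2 differed by −0.22 and Cyp2w1 by 0.09 (adjusted p = 0.45 and 0.765).

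**Figure D4:**
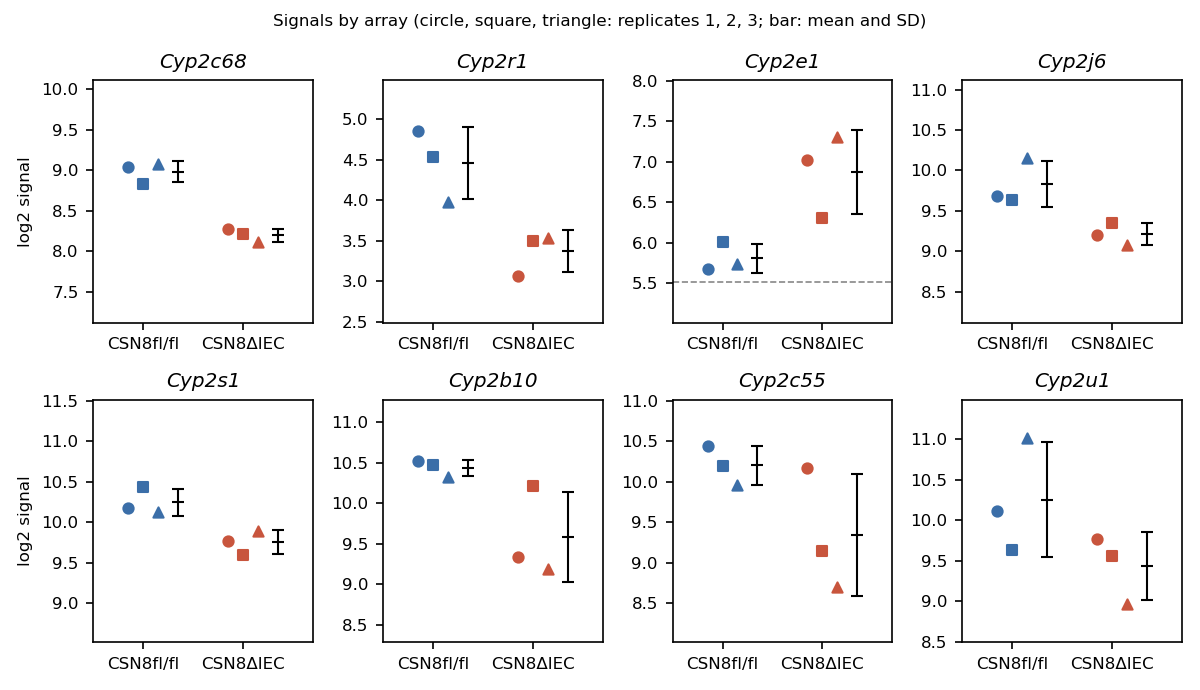
Log2 signals of 8 P450 genes in each array, CSN8fl/fl in blue and CSN8ΔIEC in red, with the mean and SD of each genotype (n = 3) as a black bar and the background line dashed where it falls in the range. Cyp2c68 is tight within each genotype, CSN8ΔIEC replicate 2 (square) stands near the CSN8fl/fl values of Cyp2b10, and CSN8fl/fl replicate 3 (triangle) is the highest value of Cyp2u1.

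CSN8fl/fl replicate 3 had the highest signals of the fatty acid hydroxylases Cyp2u1 and Cyp4b1 and of Cyp2j9. Cyp2u1 was at 10.11, 9.63 and 11.02 in CSN8fl/fl and 9.77, 9.56 and 8.96 in CSN8ΔIEC. The groups overlapped and the difference was −0.82 ± 0.33 (adjusted p = 0.295), or −0.44 without CSN8fl/fl replicate 3. Cyp4b1 differed by −0.59 ± 0.23 (adjusted p = 0.273) and Cyp2j9 by −0.64 ± 0.27 (adjusted p = 0.314), and both by −0.32 without that library. The 10 tuft cell markers were also highest there, where their median deviation from the 6-array mean was 1.96, against 0.32 and 0.43 in the other CSN8fl/fl arrays and −0.92 to −0.75 in CSN8ΔIEC. Of these 10 markers 4 fell between genotypes and 0 rose. Their part in the P450 values was not tested.

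Over all 6 arrays, family 4 showed no common direction. The 9 Cyp4f genes had a median of −0.09, with 6 below 0, and none passed the threshold, with a smallest adjusted p of 0.324 for Cyp4f13 (−0.36 ± 0.16). Of the 9, 1 had an unadjusted p under 0.05, as 15% of all genes did in either direction. In the labelled females 3 of the 9 were below 0, with a median of 0.10. All 9 were in the male pair, with 1 array per genotype and a median of −0.40. Cyp4f14 was at 13.03, 12.90 and 13.24 in CSN8fl/fl and 12.90, 13.17 and 12.84 in CSN8ΔIEC. These ranges overlapped, and the interval of its difference was −0.41 to 0.24. Cyp4f16 differed by 0.36 (adjusted p = 0.409), Cyp4f40 by −0.23 (adjusted p = 0.418) and Cyp4f37 by −0.09 (adjusted p = 0.83). The 5 Cyp4a differences were above 0, with a median of 0.23, but all 5 genes were below the background line. Of them, Cyp4a32 had the widest, 0.79 ± 0.33 (adjusted p = 0.305), and rested on CSN8ΔIEC replicate 3, at 5.43 against 4.16 and 4.08 in the other CSN8ΔIEC samples. Without 1 library at a time its difference lay between 0.36 and 1.03. The 3 family 1 genes differed by −0.13 (Cyp1a1), 0.12 (Cyp1a2) and 0.11 (Cyp1b1), with adjusted p-values of 0.763 to 0.895.

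The P450 genes above the line were lower in CSN8ΔIEC more widely in the labelled male pair than in the labelled females. In that pair, with 1 array per genotype and so no test, 36 of the 37 genes were lower in CSN8ΔIEC, or 97.3%, with a median of −0.45, and the exception was Cyp2e1 at 1.56. Of all genes above the line 48.8% were lower in that pair. In the labelled females, with 2 arrays per genotype, 25 of 37 were lower, or 67.6%, with a median of −0.09, against 51.2% of all genes above the line. CSN8fl/fl replicate 3 held the highest of the 6 signals for 16 of the 37 genes (43.2%, against 24.5% of all genes above the line) and CSN8ΔIEC replicate 3 the lowest for 19 (51.4%, against 18.1%). In the labelled male pair villus enterocyte markers went the same way, with 14 of 15 lower in CSN8ΔIEC (median −0.61). In the labelled females they did not, with 4 of 15 lower, or 26.7%, and a median of 0.08, against 67.6% of these P450 genes. Over all 6 arrays these markers had a median difference of −0.08 ( 0 of 15 past the threshold, 3 at an unadjusted p under 0.05). Stem cell and proliferation markers were higher in the male pair for 8 of 8 (median 1.04) and had a median of 0.22 in the females. The part of these cell types in the P450 values was not tested.

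**Figure D5:**
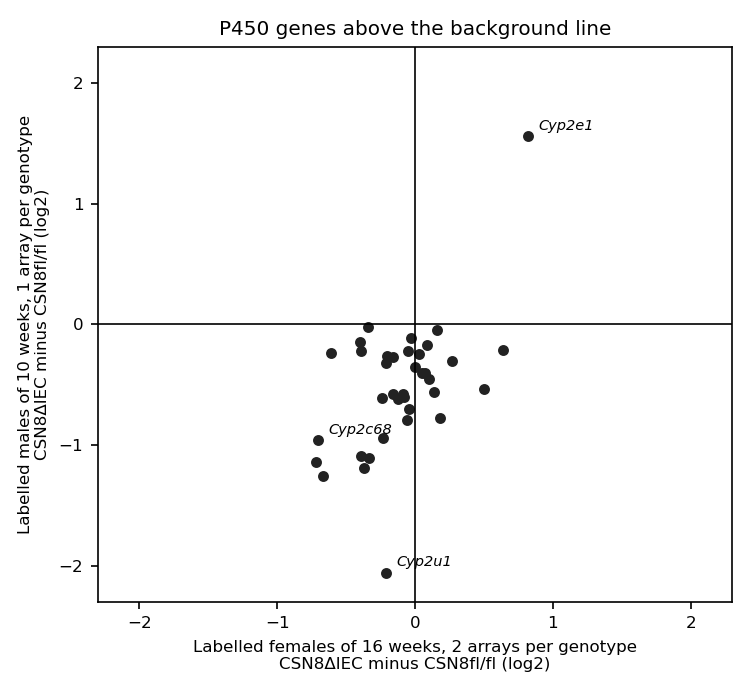
Genotype difference (CSN8ΔIEC minus CSN8fl/fl, log2) of the 37 P450 genes above the background line in the labelled females of 16 weeks (horizontal, 2 arrays per genotype) and in the labelled males of 10 weeks (vertical, 1 array per genotype). In the male pair 36 points lie below 0, and Cyp2e1 is the exception.

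The interaction of genotype with labelled sex and age passed the threshold for no P450 gene in limma. None of the 72 passed (smallest adjusted p = 0.293, for Cyp4a32), as no gene of all 19505 did (0%), and 15 of 72 had an unadjusted p under 0.05, or 20.8%, against 10.1% of all genes. Its spread came from the labelled females alone. Cyp2u1 had an interaction of −1.85 ± 0.33 (adjusted p = 0.381), with −0.21 in females and −2.06 in the male pair. Several P450 genes are known to differ between the sexes in mouse liver, but with genotype in the model none of the 72 passed the threshold between labelled males and labelled females in limma (smallest adjusted p = 0.778), where 0.0154% of all genes did. At an unadjusted p under 0.05 there were 3 of 72, or 4.17%, against 6.16% of all genes, and these were Cyp1a1 (−0.45, males minus females), Cyp2c55 (−0.66) and Cyp2j9 (0.57).

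None of the measured genes listed as serving or controlling P450 enzymes passed the threshold between genotypes in limma. Outside the P450 genes, 4 of 11 PXR and CAR targets and 1 of 5 AHR targets rose. Por, the gene of P450 oxidoreductase, was listed but was not among the genes measured. Of 7 other electron donors and P450 partners 0 passed the threshold and 2 had an unadjusted p under 0.05, as 15% of all genes did. The 7 included Cyb5r1 at 0.35 (adjusted p = 0.28), Cyb5a at −0.33 (adjusted p = 0.323) and Cyb5r3 at −0.19 (adjusted p = 0.506). Of 20 receptors and regulators 0 passed and 3 had an unadjusted p under 0.05, near the 15% of all genes, with a median of −0.04. Ppara differed by −0.55 ± 0.14 (adjusted p = 0.108), Pparg by 0.73 ± 0.21 (adjusted p = 0.162), Ahr by −0.21, the PXR gene Nr1i2 by −0.06 and the CAR gene Nr1i3 by −0.14. Of 8 haem synthesis genes 0 passed and 0 had an unadjusted p under 0.05. Of 11 PXR and CAR targets outside the P450 genes 4 rose and 0 fell, where 0.374% of all genes rose and 0.702% fell. The median of the 11 was 0.18, or 0.51 in the labelled females and −0.14 in the male pair. Those that rose were the glutathione transferases Gstm1 (3.56-fold) and Gstm2 (2.43-fold), the exporter Abcc3 (2.19-fold) and the aldehyde dehydrogenase Aldh1a1 (2.51-fold). The others did not pass and lay between −0.70 (Ces2a, adjusted p = 0.281) and 0.24 (Sult2a1), with Abcb1a at 0.11 and Alas1 at −0.07. In the same arrays the P450 targets of these receptors, Cyp3a11 and Cyp2b10, differed by −0.30 and −0.86 without passing. Of 5 other AHR targets 1 rose, the quinone reductase Nqo1 (3.47-fold, adjusted p = 0.0194) and Cyp1a1 itself was below the background line. Gstm2 passed with each library left out in turn, and Gstm1, Abcc3, Aldh1a1 and Nqo1 each failed in at least 1 of these fits, with adjusted p-values up to 0.0971.

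In the eicosanoid, retinoid and PPARα target lists, 4 genes changed. Ephx1, the microsomal epoxide hydrolase that acts on P450-made epoxides, rose 3.20-fold from 7.53 ± 0.24 to 9.21 ± 0.31 (difference 1.68 ± 0.19, adjusted p = 0.0082) and passed with each library left out in turn. It was the 1 of 15 eicosanoid enzymes that rose, with 0 that fell and a median of −0.21. Of the 15, 13 were below 0, and 5 were lower at an unadjusted p under 0.05, where 8.01% of all genes were. Alox5ap, among these 5, is also on the tuft cell marker list. Alox5 (8.76) and Hpgds (7.84) were highest in CSN8fl/fl replicate 3, as the tuft cell markers were. The part of tuft cells in these values was not tested. Hpgds and Alox5 each differed by −1.51 (adjusted p = 0.0927 and 0.157). Without CSN8fl/fl replicate 3 the differences were smaller, −1.04 and −0.89, but both genes passed (adjusted p = 0.0433 each, limma). Across the alternatives the adjusted p was 0.0227 to 0.282 for Hpgds and 0.0433 to 0.384 for Alox5. Ephx2, the soluble hydrolase, differed by −0.22 (adjusted p = 0.647). Of 13 retinoid genes 1 rose, Aldh1a1, and 1 fell, Lrat, which esterifies retinol (2.03-fold, adjusted p = 0.0239, up to 0.1 with 1 library left out). Of 15 PPARα targets 1 rose, Angptl4 (2.29-fold, adjusted p = 0.0447, up to 0.175 with 1 library left out), with a median of 0.05. Ephx1, Gstm1 and Nqo1 are also targets of NRF2, and these lists were chosen with their results known.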

How the data were processed

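Total RNA from crypts of 6 samples was hybridised to 1 Affymetrix array each. The authors deposited log2 signals per probe set, with RMA and Partek 6.6 named in the submitters' processing notes. Neither settings nor a genome build was found in the labels. Of 22206 probe sets, 19572 had 1 gene symbol in the platform annotation and 2634 are unnamed here. Where a gene had several, the probe set with the highest mean was used, which left 19505 genes. Arrays have no read depth, and their number limits the precision.

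Genotypes were compared with limma 3.58.1 in R 4.3.3 (lmFit, eBayes, 8.85 total degrees of freedom after moderation over genes). Tests were two-sided, with Benjamini-Hochberg adjustment over all genes and a threshold of 0.05. The fit was run on simulated data with effects larger than any P450 difference here, so that run does not show its power for smaller ones. Labelled sex and age and its interaction with genotype were fitted in further models. The labels call the samples biological replicates without naming separate mice, so p-values measure the spread between these samples, which may be partly technical. Motifs were searched in RefSeq promoter windows of 300 bases (GRCm38.p6), and upstream sequences were aligned with Biopython 1.88 (match 2, mismatch −1, gap −5 and −0.5, free ends).

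The members, the gene lists and the tests were chosen with earlier results of these data known. Named genes were taken from the members past the threshold or above the background line and the smallest p and widest differences of each subfamily. They were also taken from the listed genes past the threshold or up to 3 by smallest p, with Cops8. Others, such as single markers, Ahr, Nr1i2, Nr1i3, Ephx2 and the P450 genes outside the 72, were named after their values were seen. Not every gene that met these rules was described singly. Cyp2c23, Cyp4f17 and Cyp4f18, above the line, and the Cyp2a genes were not. Alternatives were a filter on dim genes, array centring, quantile normalisation, trend and robust moderation, averaged or all probe sets, a replicate block, sex and age as a covariate, females alone, each array left out, a 2-fold requirement and other background lines.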

Additional observations from a re-analysis of the deposited data

How the results depend on the processing

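Cyp2c68 kept its direction in every alternative run, with differences of −0.86 to −0.70. The count of P450 genes that fell, 1, was 0 with a replicate block (adjusted p = 0.0506 for Cyp2c68), 0 in labelled females alone and 0 when a 2-fold difference was also required, and between 0 and 1 with 1 library left out. In those fits the gene that fell was not always Cyp2c68: without CSN8fl/fl replicate 3 it was Cyp2r1 and without CSN8ΔIEC replicate 2 it was Cyp2b10. The count that rose was 0, and between 0 and 1 with 1 library left out, the 1 being Cyp2e1. The count of all genes called, 210, was 97 in labelled females alone, and from 41 to 228 with 1 library left out. The number of P450 genes above background, 37, was 23 when the line was the median of all genes and 32 with the 99th percentile of the receptor genes. No called P450 gene changed sign, and 26 of the genes that did not pass had a difference that changed sign in at least 1 alternative. Same-numbered replicates were not shown to be paired, since their deviations from the genotype means correlated at 0.117, −0.024 and 0.038, and with the replicate number as a block 202 genes were called. The cause of these changes was not tested. With 3 arrays per genotype, 9 of 72 intervals reached beyond a 2-fold difference.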

Other observations

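None of the P450 genes of families 5 and above passed the threshold between genotypes. These families include the enzymes of sterol, bile acid, steroid, vitamin D and retinoic acid metabolism, and 18 were measured, of which 8 were above the background line. Cyp51, which demethylates lanosterol on the way to cholesterol, was at 10.9 on average and differed by 0.18 (adjusted p = 0.708). Cyp27a1, which oxidises the cholesterol side chain, was at 8.93 and Cyp39a1, which hydroxylates an oxysterol, at 8.80, with differences of −0.07 and −0.06. The Cyp39a1 value rested on CSN8fl/fl replicate 3, at 7.99 against 9.19 and 9.30 in the other CSN8fl/fl arrays, and was −0.47 without it, −0.56 in labelled females and 0.95 in the male pair. Cyp17a1, a steroid hydroxylase, was low at 5.67 and had the smallest adjusted p of the 18, with 6.04 ± 0.06 in CSN8fl/fl and 5.29 ± 0.27 in CSN8ΔIEC (difference −0.75 ± 0.15, adjusted p = 0.06, with 0.036 to 0.261 across the alternatives). In limma, 0 of the 18 passed the threshold, 2 had an unadjusted p under 0.05, and the median difference was −0.02. The retinoic acid hydroxylases Cyp26a1 (5.02), Cyp26b1 (5.01) and Cyp26c1 (5.49) were below the line, as was Cyp7a1 (4.20), the rate-limiting enzyme of bile acid synthesis.

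Of the 72 members, 59 had a RefSeq promoter window, from 250 bases before to 50 after the start, and 66 windows were searched on both strands. GCGTG was in 13 of them (19.7%), against 32.4% of all 32851 windows, among them those of Cyp1a1, Cyp1b1 and Cyp2c68. TGACNNNGC, the antioxidant response element core, was in 6 (9.09%, against 12.4%), among them Cyp2c65, Cyp2c66 and Cyp2j6. AGGTCA, a hexamer bound by nuclear receptors, was in 19 (28.8%, against 16.3%), among them the windows of Cyp3a11, Cyp3a25, Cyp3a44, Cyp3a57 and Cyp3a59. Near copies share their windows, so these shares do not count independent sequences, and a match is not evidence of binding.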
